A study of Mus musculus with 6 samples.

Results

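The Hox genes of the colon nuclei were followed across cell classes and treatments. They were taken as every gene whose symbol is Hox, a cluster letter from a to d, and a paralogue number: 39 symbols (40 gene IDs, since Hoxd4 is carried by 2) of 31053 genes, the same in all 6 libraries. Of the 39, 27 had a UMI (a unique molecular identifier, which marks 1 captured transcript) somewhere in the data, 12 had none, and 17 had at least 30 UMIs in the nuclei kept for analysis.

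Hox genes encode homeodomain transcription factors and lie in a cluster on each of 4 chromosomes. Within a cluster, genes of low paralogue number are switched on early and towards the head, and genes of high number late and towards the tail, so that the set of Hox genes a cell expresses reflects where along the body axis its ancestors arose. In the gut, most enteric neurons and glia come from neural crest cells of the hindbrain level that migrate down the tube. Smooth muscle comes from the local mesoderm and the lining from the endoderm. Hoxb5 is known for its part in the migration of enteric neural crest and in control of the receptor gene Ret, and Hoxd13, Hoxa13 and Hoxb13 are known as markers of the most posterior gut.

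The nuclei came from total colon of C57BL/6J mice labelled WT in every group, and were sorted for DAPI, a DNA stain, and for INTACT, a nuclear tag. The promoter that drives the tag, the age and sex of the mice, and whether animals were pooled are not given in the labels. There were 2 Control libraries, 3 Stress libraries (daily restraint over 7 days) and 1 Dexamethasone library (injections of this synthetic glucocorticoid over 7 days). Whether the replicates are different mice is not stated in the labels, so the p-values speak only of the spread between these libraries, which may be technical.

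The libraries held 853 to 3042 barcodes and 6057994 to 14838057 UMIs. Barcodes with 300 or more genes and with up to 5% of UMIs from mitochondrial genes were kept as nuclei, which retained 14.9% (Control 2) to 52.7% (Stress 3) of the barcodes, and 3430 nuclei remained after 31 doublets were removed. They were clustered with the Hox genes left out and named from marker genes. Although the labels call the samples ENS cells, 415 nuclei were neuron-like and 880 glia-like, beside 438 epithelium-like, 205 fibroblast-like, 313 smooth muscle-like, 76 macrophage-like, 158 lymphatic endothelium-like, 38 vascular endothelium-like and 114 cycling-like nuclei. The 12 neuron markers summed to 9274 CPM in neuron-like nuclei and 244 CPM in glia-like nuclei, where CPM are UMIs per 1000000 UMIs of the class. Of all barcode sequences, 17 occurred in more than 1 library, 3 of them among the kept nuclei. Hox UMIs made up 283 to 409 CPM of the kept nuclei.

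The promoters of 3 Hox genes are shown because these genes stand for the paralogue ranges that differed most between classes below: Hoxb4, an anterior-type gene high in glia-like nuclei, Hoxd11, highest in epithelium-like nuclei, and Hoxd13, the last gene of its cluster. Each is the 250 bases before the transcription start in RefSeq (GRCm38.p6), on the plus strand, and none overlaps an annotated exon. The Hoxb4 window is chr11:96318017-96318266, the Hoxd11 window chr2:74682073-74682322 (before the second start listed) and the Hoxd13 window chr2:74667975-74668224. Capitals mark matches, on either strand, to AGGTCA (the half-site of retinoic acid receptors), TGATTNAT (a Hox and Pbx composite motif) or TATAAA (the TATA box).
Hoxb4: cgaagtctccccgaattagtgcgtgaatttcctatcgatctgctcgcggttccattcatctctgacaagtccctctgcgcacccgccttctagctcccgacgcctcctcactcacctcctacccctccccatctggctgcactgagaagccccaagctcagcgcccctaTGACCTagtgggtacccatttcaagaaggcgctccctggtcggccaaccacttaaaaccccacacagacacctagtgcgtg
Hoxd11: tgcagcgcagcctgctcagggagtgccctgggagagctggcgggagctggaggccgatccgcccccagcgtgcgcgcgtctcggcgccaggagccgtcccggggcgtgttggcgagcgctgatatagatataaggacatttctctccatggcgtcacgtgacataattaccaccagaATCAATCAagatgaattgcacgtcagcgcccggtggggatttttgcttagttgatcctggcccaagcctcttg
Hoxd13: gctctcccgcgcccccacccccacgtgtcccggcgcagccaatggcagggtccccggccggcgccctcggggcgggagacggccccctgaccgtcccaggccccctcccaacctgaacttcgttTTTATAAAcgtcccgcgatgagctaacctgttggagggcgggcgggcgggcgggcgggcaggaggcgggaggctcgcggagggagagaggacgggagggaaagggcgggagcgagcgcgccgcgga
The Hoxb4 window held AGGTCA, read as TGACCT on this strand, and 14 CG dinucleotides. The Hoxd11 window held TGATTNAT, read as ATCAATCA, and 20 CG dinucleotides. The Hoxd13 window held TATAAA on both strands, in overlapping positions, and 31 CG dinucleotides. Among the 24 Hox promoters of the table, for 22 symbols, AGGTCA was found in 6, TGATTNAT in 2 and TATAAA in 4, against 14.02%, 2.82% and 12.4% of all 32851 promoters. The median number of CG dinucleotides was 12.5 in the Hox promoters (range 2 to 35) and 6 in all promoters. A match describes the letters of the window and does not show that a factor binds there.

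Whether a Hox gene could be counted at all depended on the annotation. The Hoxa cluster lies on chromosome 6 (52155590 to 52260880, minus strand), Hoxb on chromosome 11 (96194316 to 96368256, plus strand), Hoxc on chromosome 15 (102921103 to 103036852, plus strand) and Hoxd on chromosome 2 (74668310 to 74765142, plus strand), all in GRCm38. Of the 12 genes without a UMI, 8 (Hoxa3, Hoxa4, Hoxa5, Hoxa6, Hoxc6, Hoxc8, Hoxc9 and Hoxd4) lie with their whole body under another gene of the same strand in GENCODE M21. Over the whole genome, 434 of 435 protein-coding genes placed in this way had no UMI in any barcode (99.8%), compared with 2987 of 20450 (14.6%) of those with no same-strand gene over them. A zero for these 8 genes is therefore no measure of expression. Hoxc10, covered over 87.3% of its body, also had no UMI, and Hoxb1, Hoxc12 and Hoxc13 had none although nothing covers them on their strand. The genes partly covered but counted were Hoxa2 (163 UMIs over all barcodes), Hoxc5 and Hoxd3 (248 UMIs). Whether counting used the strand is not given in the sources used here, so reads of Hoxb3 and Hoxb5 cannot be told apart from those of their antisense partners Hoxb3os and Hoxb5os.

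**Figure D1:**
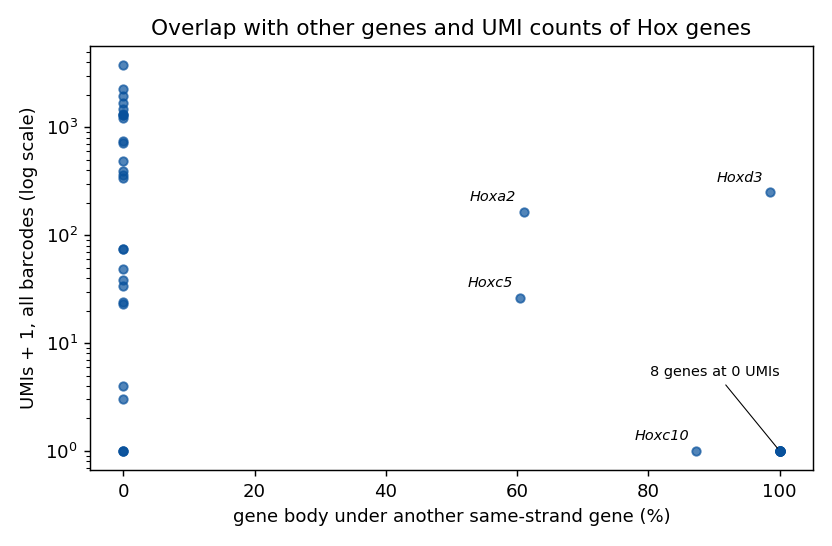
Each point is 1 of the 39 Hox genes found in GENCODE M21. The horizontal axis gives the percentage of the gene body that lies under another gene of the same strand, and the vertical axis the UMIs in all barcodes plus 1, on a log scale. The 8 genes covered over 100% of their body are all at 0 UMIs.

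In all barcodes the most counted members were Hoxb5 (3750 UMIs), Hoxb3 (2268), Hoxb4 (1932), Hoxb13 (1687), Hoxb9 (1475), Hoxd11 (1321), Hoxb6 (1307), Hoxd13 (1297) and Hoxa9 (1219). UMI counts do not compare genes with each other, since capture differs between transcripts, so the levels below are compared between classes within a gene. The classes differed in which part of the Hox clusters they used. Paralogues 1 to 3, 4 to 8 and 9 to 13 held 28.5%, 67.7% and 3.74% of the 1282 Hox UMIs of neuron-like nuclei, and 43.0%, 52.0% and 4.93% of the 892 of glia-like nuclei. In smooth muscle-like nuclei paralogues 9 to 13 held 59.1% of 374 Hox UMIs, in fibroblast-like nuclei 52.1% of 73, and in epithelium-like nuclei 90.7% of 311. In the 4 classes with most nuclei, every smooth muscle-like library lay above every neuron-like and glia-like library in the share of paralogues 9 to 13. It lay below every epithelium-like library with at least 10 such nuclei. The order of neuron-like and glia-like nuclei was not the same in each library. The share of paralogues 9 to 13 lay between 2.53% and 7.59% in neuron-like nuclei and between 2.11% and 11.4% in glia-like nuclei. In smooth muscle-like nuclei it lay between 50.5% and 77.1%, and in epithelium-like nuclei between 81.8% and 94.7% in the 5 libraries with at least 10 such nuclei. The 4 ranges do not overlap except those of neuron-like and glia-like nuclei, and no test was made of these sums over members. Of the 8 genes that could not be counted, only Hoxc9 is of paralogues 9 to 13. The shares of that range are therefore likely too high, by an unknown amount that may differ between classes.

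The 4 gene clusters also took different shares of the counted Hox UMIs, which can be compared between classes but not between gene clusters. Hoxb genes gave 88.9% of the Hox UMIs in neuron-like and 89.1% in glia-like nuclei. In smooth muscle-like nuclei Hoxa gave 32.4%, Hoxb 37.4% and Hoxd 27.3%, and in epithelium-like nuclei Hoxd gave 51.8% and Hoxb 34.7%. Hoxc gave at most 5.61% in these 4 classes. Since 4 Hoxa genes, 4 Hoxc genes and Hoxd4 could hardly be counted, the shares of Hoxa, Hoxc and Hoxd are too low and that of Hoxb too high by an unknown amount. Lymphatic endothelium-like nuclei stood between, with 55.7% of 70 Hox UMIs from paralogues 4 to 8 and 31.4% from 9 to 13.

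**Figure D2:**
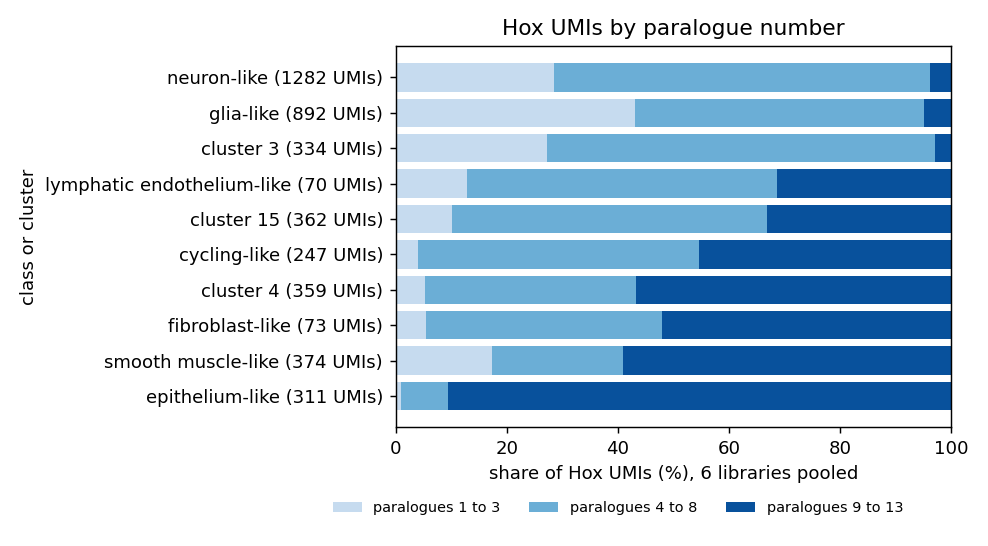
Share of Hox UMIs (percent, horizontal axis) from paralogues 1 to 3, 4 to 8 and 9 to 13 in each class or cluster (vertical axis), with the 6 libraries pooled and the number of Hox UMIs beside each name. The share of paralogues 9 to 13 runs from 2.99% in cluster 3 to 90.7% in epithelium-like nuclei.

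A Hox UMI was found in 64.3% of neuron-like nuclei (exact 95% interval 59.5 to 68.9), 50.5% of glia-like (47.1 to 53.8), 50.8% of smooth muscle-like (45.1 to 56.5), 38.6% of epithelium-like (34.0 to 43.3) and 22.9% of fibroblast-like nuclei (17.4 to 29.3). These intervals cover counting error only. The classes differ in depth, with a median of 4972 UMIs per nucleus in neuron-like and 1937 in fibroblast-like nuclei. With each nucleus thinned to 1000 UMIs, the shares were 21.7% (neuron-like), 23.0% (glia-like), 30.7% (smooth muscle-like), 20.4% (epithelium-like) and 11.8% (fibroblast-like), so that the order of the unthinned shares did not hold. Shallower nuclei were left out, 55, 72, 52, 60 and 44 in the same order. Among macrophage-like nuclei, of blood origin and with a median of 950.5 UMIs, 10.5% had a Hox UMI, and 11.1% after thinning. The latter is 4 of 36 nuclei and that of fibroblast-like nuclei 19 of 161, so the thinned share of fibroblast-like nuclei cannot be set apart from the level in macrophage-like nuclei.

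**Figure D3:**
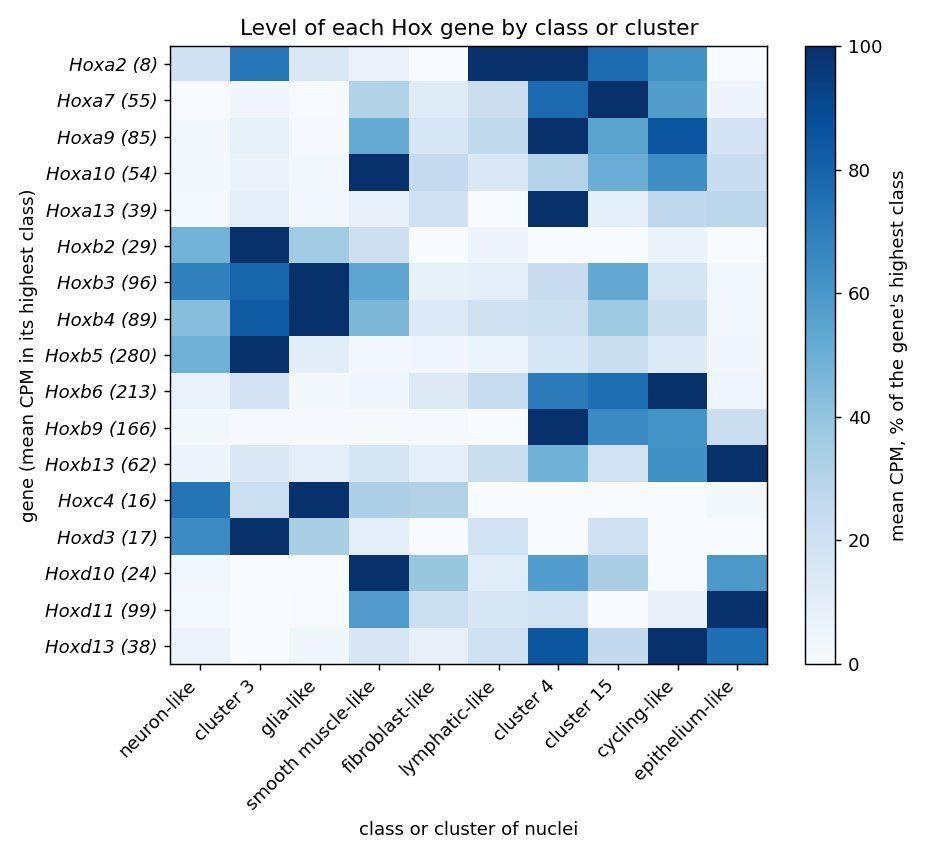
Mean level of the 17 Hox genes with at least 30 UMIs in kept nuclei (vertical axis, with the mean CPM of the highest class in parentheses) in 10 classes or clusters (horizontal axis), over libraries with at least 10 nuclei. The colour gives the mean as a percentage of the gene's highest class. Hoxb3 and Hoxb4 are darkest in glia-like nuclei and Hoxb2 and Hoxb5 in cluster 3, all at the left, where Hoxb5 is pale in glia-like nuclei (10.5%), and Hoxb13 and Hoxd11 are darkest at the right.

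Neuron-like and glia-like nuclei shared the anterior genes of the Hoxb cluster but differed in Hoxb5 and Hoxb4. Hoxb5 was at 65.5 and 81.9 CPM (Control), 132, 167 and 201 CPM (Stress) and 175 CPM (Dexamethasone) in neuron-like nuclei. In glia-like nuclei it was at 6.41 and 16.03, at 58.0, 16.7 and 37.8, and at 41.2 CPM in the same order. Every neuron-like value was above every glia-like value. Hoxb5 was 5.37-fold higher in neuron-like than in glia-like nuclei (log2 2.43 ± 0.27, SE; adjusted p = 2.49e-10, edgeR's quasi-likelihood test over all genes with the library as a block). A Hoxb5 UMI was present in 34.5% of neuron-like nuclei (143 of 415) and 9.32% of glia-like nuclei (82 of 880), or 10.0% and 2.72% after thinning. None was present in 76 macrophage-like nuclei, which at a limit of 3 counts allows a share of nuclei with a UMI of up to 3.95%.

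Hoxb4, the neighbour of Hoxb5 and a regulator of progenitor cells in blood, went the other way. It was at 89.7 and 93.6 CPM (Control), 83.8, 75.3 and 115 CPM (Stress) and 76.5 CPM (Dexamethasone) in glia-like nuclei. In neuron-like nuclei it was at 47.3 and 34.6, at 19.8, 38.6 and 41.5, and at 47.0 CPM. The 2 ranges do not overlap, and Hoxb4 was lower in neuron-like nuclei by 1.09 ± 0.23 on the log2 scale (edgeR, adjusted p = 8.29e-05). This does not hold for every cluster with a neuron score. Cluster 3, described below, reached that score but is not in the neuron-like class. Its Hoxb4 averaged 73.4 ± 24.4 CPM (SD, n = 3 libraries; range 56.5 to 101), which overlaps the glia-like range.

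Hoxb3 did not separate the classes. It averaged 66.2 ± 17.4 CPM (SD, n = 6 libraries) in neuron-like and 96.4 ± 17.7 CPM in glia-like nuclei, with overlapping ranges (33.1 to 85.0 and 76.9 to 124), and the log2 difference was -0.38 ± 0.23 (edgeR, adjusted p = 0.157). In this comparison 2 of the 6 Hox genes that passed the filter on low counts were called, and 55.6% of all genes tested were called. The other 3, Hoxa9, Hoxa10 and Hoxd11, were near 0 in both classes. The median log2 difference of the 6 was -0.04, beside 0.05 for all genes.

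The remaining members seen in neuron-like nuclei were low. Hoxb2 was at 6.61 to 19.2 CPM, Hoxb6 at 5.45 to 27.1, Hoxd3 at 8.54 to 19.8 and Hoxc4 at 0 (Control 2) to 22.2 CPM. In glia-like nuclei Hoxc4 was at 9.16 to 25.1 CPM and Hoxb2 at 2.09 to 16.1 CPM. Hoxb6 reached at most 6.41 CPM there. These ranges overlap between the classes for Hoxb2 and Hoxc4, and no test was made because none of the 4 passed the filter.

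Free RNA can put transcripts of neurons into other nuclei. The summed level of the 12 neuron markers in glia-like nuclei was 269 and 162 CPM (Control), 151, 272 and 285 CPM (Stress) and 247 CPM (Dexamethasone), with 6 to 11 of the 12 markers having a UMI, beside 8108 to 10082 CPM in neuron-like nuclei. The part of this signal in glial Hoxb5 was not tested.

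**Figure D4:**
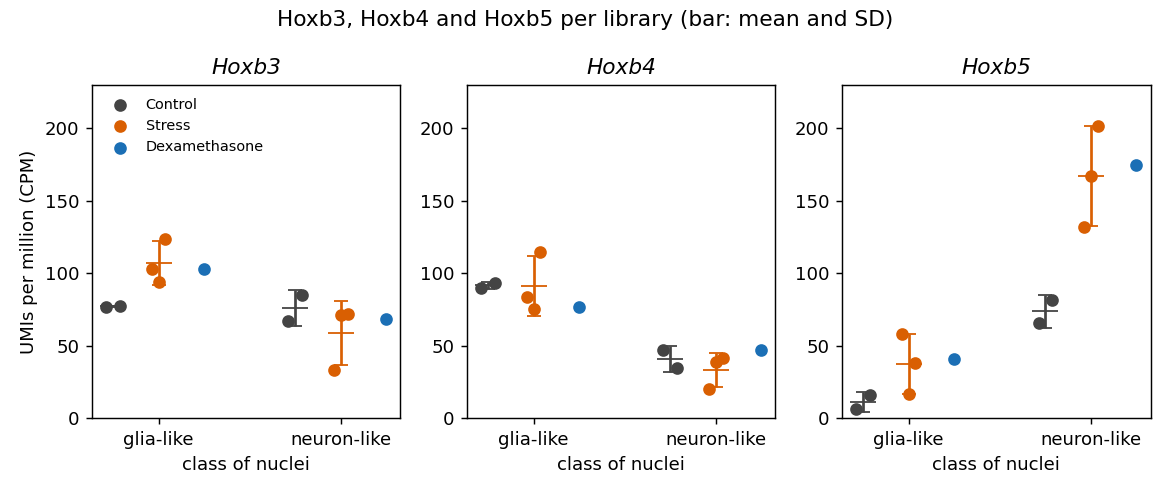
Level in CPM (vertical axis) of Hoxb3, Hoxb4 and Hoxb5 in glia-like and neuron-like nuclei (horizontal axis). Each point is 1 library, coloured by group, and bars give the mean and SD of the group. Hoxb5 sits at 65.5 to 201 CPM in neuron-like and 6.41 to 58.0 CPM in glia-like nuclei, Hoxb4 at 19.8 to 47.3 and 75.3 to 115 CPM.

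Smooth muscle-like nuclei used the middle and posterior genes Hoxa9, Hoxa10 and Hoxd11 beside Hoxb3 and Hoxb4. Hoxd11, best known from limb and kidney patterning, was at 28.8 and 49.96 CPM in the Control libraries, 84.1, 69.0 and 80.2 CPM in Stress and 30.3 CPM in the Dexamethasone library, and 14.7% of nuclei had a UMI of it. Hoxa10, a gene of the trunk and reproductive tract, averaged 54.3 ± 19.6 CPM (SD, n = 6; range 27.0 to 75.9). Hoxa9, known from blood progenitors, averaged 43.7 ± 8.60 CPM. Every smooth muscle-like library exceeded every neuron-like and glia-like library for these 3 genes, which stayed at or below 4.27 CPM there. Hoxb4 was at 28.0 to 49.96 CPM and Hoxb3 at 19.2 to 70.8 CPM, ranges that overlap those of neuron-like nuclei. Hoxd10 was at 9.61 to 49.96 CPM and Hoxb5 averaged 6.88 ± 8.40 CPM.

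Smooth muscle-like and fibroblast-like nuclei together, as mesenchyme-like nuclei, were set against the mean of neuron-like and glia-like nuclei. Of the 6 Hox genes past the filter all 6 were called, beside 43.4% of all genes, but nothing is read from this count. Hoxd11, Hoxa9 and Hoxa10 passed the filter only through classes where they are high, with 4 UMIs each in all neuron-like nuclei and 2, 3 and 5 UMIs in all glia-like nuclei, so no fold or test is given for them. Hoxb3 (58 UMIs in smooth muscle-like nuclei) was lower by 2.13 ± 0.30 (log2, SE), Hoxb4 (41 UMIs) by 1.58 ± 0.27 and Hoxb5 (11 UMIs) by 3.06 ± 0.36. Fibroblast-like nuclei, which weigh as much as smooth muscle-like nuclei on the mesenchyme-like side, had only 4, 6 and 4 UMIs of these genes. The size of these differences thus rests in part on values near 0. Smooth muscle-like nuclei alone overlapped neuron-like nuclei in Hoxb3 and Hoxb4, as given above. The median log2 difference of all genes was -0.12 here and 0.08 when scaled to total UMIs without TMM, and the share of called genes that were higher moved from 39.2% to 53.4%. Fibroblast-like nuclei held 73 Hox UMIs in all, of which Hoxb6 gave 13 and Hoxd11 gave 9.

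Epithelium-like nuclei, as the class was named here, carried the posterior end of the clusters. Hoxd11 was at 71.6 and 193 CPM in the Control and 58.3, 88.0 and 85.0 CPM in the Stress libraries, where the Dexamethasone library held 3 nuclei of this class and was left out. Control 2, with 23 nuclei and 7 UMIs, is the highest and the other 4 lie closer together. The class is made of different clusters in different libraries: all 23 nuclei of Control 2 are of cluster 0, and 155 of the 180 of Stress 2 are of cluster 2. In Stress 3 all 9 Hoxd11 UMIs came from 4 nuclei of cluster 2 and none from its 7 nuclei of cluster 0. A Hoxd11 UMI was present in 16.7% of nuclei (73 of 438). Hoxb13, a gene of the hindgut and prostate, was at 15.1 and 110 CPM in the Control and 64.8, 53.2 and 66.1 CPM in Stress, and Hoxd13, required for the distal limb and anorectal region, at 37.7, 27.6, 38.9, 28.2 and 9.45 CPM in the same order. Hoxb9 averaged 36.5 ± 31.7 CPM (SD, n = 5). Hoxb3, Hoxb4 and Hoxb5 averaged 2.98 ± 3.94, 2.64 ± 4.14 and 8.99 ± 10.8 CPM, with some libraries at 0. Clusters 4 and 15, led by genes of crypt and secretory cells, stayed unnamed and are not part of this class. Their library means were 152 and 162 CPM for Hoxb6 and 19.1 and 0 CPM for Hoxd11, so this class does not stand for them in these genes. Hoxb13 averaged 30.2 and 11.6 CPM and Hoxd13 32.0 and 9.70 CPM in clusters 4 and 15. The Hoxd13 means thus lay within the range of this class.

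Against neuron-like and glia-like nuclei, the 6 Hox genes past the filter were all called, beside 68.8% of all genes, and again nothing is read from the count. Each of them was near 0 on one side and passed the filter through the other: Hoxb3, Hoxb4 and Hoxb5 had 3, 2 and 6 UMIs in all epithelium-like nuclei of the 5 libraries, where Hoxd11 had 100, Hoxa9 19 and Hoxa10 12. The median log2 difference of all genes was -0.44, and scaling to total UMIs moved it to -0.65.

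Against mesenchyme-like nuclei, 3 of 6 passed, beside 58% of all genes, and the epithelium-like side holds the UMIs just given. Hoxd11 was 3.06-fold higher in epithelium-like nuclei (log2 1.62 ± 0.39; edgeR, adjusted p = 0.000432), and Hoxb4 and Hoxb3 were called as lower, with 2 and 3 UMIs there and no fold given. The mean level of Hoxd11 in smooth muscle-like nuclei was 57.5% of that in epithelium-like nuclei, with overlapping library ranges. In fibroblast-like nuclei it was 21.5%, from 9 UMIs, so the fold rests in part on a class with few counts. Hoxa9 (-0.07 ± 0.67), Hoxa10 (-0.98 ± 0.65) and Hoxb5 (-0.03 ± 0.53) did not pass. Without Stress 2, which held 180 of the 438 epithelium-like nuclei, 1 of these calls was left, and with total UMIs the share of called genes that were higher was 34.4% in place of 46.4%.

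Hoxd11 and the anterior genes were also seen per nucleus. After thinning, a Hoxd11 UMI was present in 6.88% of epithelium-like and 6.51% of smooth muscle-like nuclei, 0.248% of glia-like and 0% of 360 neuron-like nuclei. In epithelium-like nuclei 51 had a UMI of a paralogue from 5 to 9, 139 of a paralogue from 10 to 13 and 24 of both ranges. In smooth muscle-like nuclei these counts were 64, 101 and 31, in neuron-like nuclei 159, 22 and 9, and in glia-like nuclei 103, 33 and 4.

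Some clusters that kept no class name had a Hox pattern of their own, and they are described without a test because they were picked after their values were seen. Cluster 4 (240 nuclei, led by Kcnq1, Cftr and Lgr5, a stem cell marker of the crypt) had Hoxb9 at 166 ± 47.5 CPM (SD, n = 5 libraries) and Hoxb6 at 152 ± 87.7 CPM. Hoxa9 was at 84.6 ± 39.7, Hoxa13 at 39.2 ± 24.4 and Hoxd11 at 19.1 ± 28.0 CPM there. Cluster 15 (214 nuclei, led by Spdef and Ern2, genes of secretory cells) had Hoxb6 at 162 ± 123 CPM (n = 6), from 0 in Control 2 to 372 in Stress 1, and Hoxb9 at 108 ± 43.6 CPM. No Hoxd11 UMI was found in its 214 nuclei, which at a limit of 3 counts allows a share of nuclei with a UMI of up to 1.40%. Cycling-like nuclei (114) had Hoxb6 at 213 ± 118, Hoxb9 at 103 ± 62.0 and Hoxa9 at 72.3 ± 23.1 CPM. In the epithelium-like class, by comparison, Hoxb6 was at 0 to 22.6 CPM and Hoxd11 at 58.3 to 193 CPM. The most posterior genes were not all highest in that class. Hoxd13 was highest in cycling-like nuclei (37.5 ± 46.8 CPM), with cluster 4 at 85.3% and epithelium-like nuclei at 75.6% of that mean. Hoxa13 was highest in cluster 4, with epithelium-like nuclei at 27.8% of its mean, and Hoxb13 was highest in epithelium-like nuclei, with cluster 4 at 48.8%.

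Within the neurons, Hoxb5 was uneven across clusters. Cluster 8 (79 nuclei) is led by Nmu, the peptide neuromedin U, cluster 11 (207 nuclei) by Nos1, Vip and Gal, genes of inhibitory motor neurons, and cluster 18 (129 nuclei) by Grik1 and Sst. Cluster 3 (84 nuclei, led by Penk and Tac1, peptides of excitatory motor neurons) and cluster 7 (29 nuclei) reached the neuron score but stayed unnamed because the lymphocyte marker Skap1 was among their leading genes. Hoxb5 in cluster 8 was at 303 CPM in Stress 2, 531 CPM in Stress 3 and 388 CPM in the Dexamethasone library, the 3 libraries with at least 10 nuclei of it. With 8, 5 and 2 nuclei, Control 1, Control 2 and Stress 1 were at 74.3, 39.6 and 399 CPM from 4, 2 and 3 UMIs. In cluster 11 Hoxb5 was at 59.0 and 28.6 CPM (Control), 53.2, 110 and 113 CPM (Stress) and 141 CPM (Dexamethasone). In cluster 3 it was at 198 CPM in Control 1, 243 CPM in Stress 2 and 399 CPM in Stress 3, the 3 libraries with at least 10 nuclei. With 7, 5 and 7 nuclei, Control 2, Stress 1 and the Dexamethasone library were at 198, 278 and 188 CPM from 4, 20 and 22 UMIs.

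Cluster 8 exceeded the mean of clusters 11 and 18 in Hoxb5 by 1.504 ± 0.24 (log2, SE; edgeR, adjusted p = 0.000401), a 2.84-fold difference. This was 1 of 3 Hox genes tested, beside 22.3% of all genes, and the sums of cluster 8 come from the 3 libraries named. Hoxb4 (0.06 ± 0.43) and Hoxb3 (-0.46 ± 0.35) did not pass. Cluster 11 was lower in Hoxb5 (-1.30 ± 0.23; edgeR, adjusted p = 0.000675), the only Hox call of 3, beside 20.8% of all genes. Leaving out any 1 library kept both calls, with log2 differences of 1.23 to 1.59 and -1.43 to -1.15. Cluster 18 had no call of 3 (11.1% of all genes passed), with Hoxb5 at -0.21 ± 0.25. Cluster 3 set against the mean of clusters 8, 11 and 18 had none of 3 (11.1%), with sums of cluster 3 from the 3 libraries named and Hoxb5 at 0.70 ± 0.25 (edgeR, adjusted p = 0.0831). Without Control 2 Hoxb5 passed there (0.70; edgeR, adjusted p = 0.0453). Among the glia-like clusters 10, 12 and 13, none of the 2 Hox genes tested passed, where 17.4%, 11.2% and 17.1% of all genes did.

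**Figure D5:**
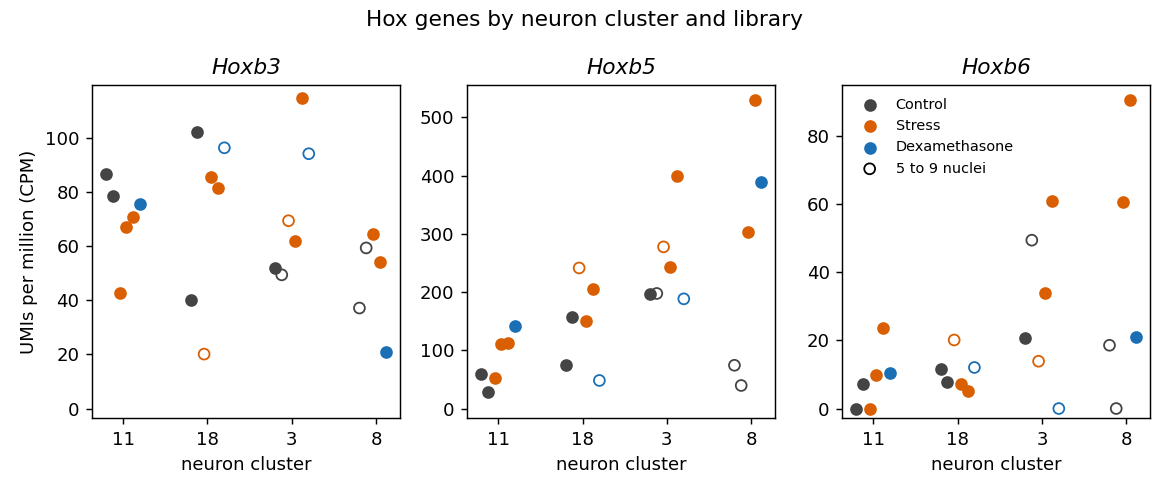
Level in CPM (vertical axes) of 3 Hox genes in neuron clusters 11, 18, 3 and 8 (horizontal axis). Points are libraries with at least 10 nuclei of the cluster, coloured by group, and open points libraries with 5 to 9. Hoxb5 lies at 28.6 to 141 CPM in cluster 11 and at 303 to 531 CPM in the filled points of cluster 8.

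The study asks how the enteric nervous system responds to stress and glucocorticoid, and the Hox genes were compared between the groups in each class. No Hox gene passed in any of these comparisons with edgeR or with DESeq2. In neuron-like nuclei Hoxb5 averaged 73.7 ± 11.6 CPM in Control (SD, n = 2) and 167 ± 34.6 CPM in Stress (n = 3). All 3 Stress libraries were above both Control libraries. The log2 difference was 1.21 ± 0.24 (SE), with an adjusted p of 0.122 by edgeR, and Hoxb6 followed at 1.90 ± 0.57 (edgeR, adjusted p = 0.316). Hoxb4 (-0.22 ± 0.33) and Hoxb3 (-0.23 ± 0.28) lay within the spread of the libraries. Of 5 Hox genes tested 0 passed, beside 0% of all 7357 genes, and at an unadjusted p under 0.05 there were 2 Hox genes and 725 genes in all. DESeq2 called 11 genes and no Hox gene. Without the filter on low counts Hoxb5 passed (1.21; edgeR, adjusted p = 0.00289).

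The libraries differed in the make-up of the neuron-like class. Cluster 8, the highest in Hoxb5 of the named neuron-like clusters, gave 9.79% and 15.9% of the neuron-like UMIs under Control, 4.98%, 23.9% and 14.03% under Stress and 20.3% under Dexamethasone. Of the neuron-like nuclei it held 67.7% in the Dexamethasone library (42 of 62) and 7.41% to 15% in the others. The median depth of neuron-like nuclei was 977.5 UMIs in the Dexamethasone library and 3255.5 to 9281.5 UMIs elsewhere. Without cluster 8 Hoxb5 was at 64.5 and 89.9 CPM (Control), 118, 124 and 148 CPM (Stress) and 121 CPM (Dexamethasone). In cluster 11 alone the log2 difference of Stress from Control was 1.05 (edgeR, adjusted p = 0.322), and in cluster 18 alone 0.62 (edgeR, adjusted p = 0.995). The smooth muscle markers summed to 242 to 401 CPM in the neuron-like nuclei of the Control and Stress libraries and 1076 CPM in the Dexamethasone library, and the part of these markers and of depth in the result was not tested.

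The Dexamethasone library has no replicate and is assumed to vary like the others. Hoxb5 was at 175 CPM, 1.15 ± 0.31 above Control on the log2 scale (edgeR, adjusted p = 0.140). With stricter nuclei (500 genes or more, mitochondrial UMIs up to 2%) the difference turned to -0.61 (edgeR, adjusted p = 0.772), and without the mitochondrial filter it was 0.83 and passed (edgeR, adjusted p = 0.0354). Of 6 Hox genes 0 passed, beside 0.34% of all genes, and 1 Hox gene was under an unadjusted p of 0.05. This library was counted with another Cell Ranger version, 5.0.1 in place of 4.0.0, which cannot be told apart from the treatment. Both comparisons share the Control libraries.

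In glia-like nuclei Hoxb5 averaged 11.2 ± 6.76 CPM in Control (SD, n = 2) and 37.5 ± 20.6 CPM in Stress (n = 3). Stress 2, at 16.7 CPM, was close to Control 2, at 16.03 CPM, and the other Stress libraries were higher. Cluster 12 held most glia-like nuclei in Control 1 (127 of 202), Control 2 (89 of 138) and Stress 1 (80 of 124), and cluster 13 in Stress 2 (69 of 118), Stress 3 (123 of 184) and the Dexamethasone library (84 of 114). The log2 difference was 1.64 ± 0.61 (edgeR, adjusted p = 0.237) and 1.76 in cluster 12 alone (edgeR, adjusted p = 0.593), while Hoxb3 was at 0.44 ± 0.25 and Hoxb4 at -0.01 ± 0.26. Here 0 of 3 Hox genes passed, beside 2.03% of all genes. For Dexamethasone against Control, Hoxb5 was at 1.97 ± 0.67 (edgeR, adjusted p = 0.0970), and 0 of 4 passed, beside 6.07%. It was at 3.69 in cluster 13 alone (edgeR, adjusted p = 0.0766), and at 1.28 without the mitochondrial filter, where it passed (edgeR, adjusted p = 0.0470). In each of these comparisons 1 Hox gene, Hoxb5, had an unadjusted p under 0.05. The difference of the stress effect between neuron-like and glia-like nuclei was -0.44 ± 0.60 for Hoxb5 (edgeR, adjusted p = 0.915), and 0 of 5 Hox genes passed, beside 0.134% of all genes.

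Elsewhere the groups could hardly be compared. In smooth muscle-like nuclei 1 Hox gene could be tested for Stress, Hoxd11 at 0.97 ± 0.63 (edgeR, adjusted p = 0.616), where 0.353% of all genes passed. For Dexamethasone 3 were tested, with Hoxd11 at -0.37, Hoxa10 at -1.07 and Hoxb3 at 0.80, and none passed beside 0.903% of all genes. In epithelium-like nuclei Hoxd11 (-0.31 ± 0.52) and Hoxb13 (0.88 ± 0.88) did not pass for Stress, beside 0% of all genes, where the libraries differ in clusters 0 and 2 as given above. No Hox gene was abundant enough to be tested in fibroblast-like nuclei (1.45% of all genes passed for Stress and 2.39% for Dexamethasone).

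Other genes of the pathway are given from 5 lists. They could take part in the clustering, so their values between classes are a description. Of all genes, 55.6% were called in neuron-like against glia-like nuclei. Against neuron-like and glia-like nuclei, 43.4% were called in mesenchyme-like and 68.8% in epithelium-like nuclei. Nothing is read from the counts of called list members below. Of the 9 TALE cofactors, homeodomain proteins that bind DNA together with Hox proteins, 6 were tested. Pbx3 (1.66 ± 0.32), Meis2 (1.89 ± 0.59) and Pknox1 (1.70 ± 0.31) were higher in neuron-like than in glia-like nuclei, and Pknox2 was lower (-2.67 ± 0.22; log2, SE). In mesenchyme-like nuclei 4 were higher and none lower than in neuron-like and glia-like nuclei, led by Meis2 (7.52 ± 0.30), which was at 1719 ± 382 CPM in smooth muscle-like and 2.32 ± 2.84 CPM in glia-like nuclei (SD, n = 6). In epithelium-like nuclei 3 were lower (Meis1, -3.92 ± 0.41, Pknox2 and Pbx3). The median log2 difference of the 6 was 0.72, 2.18 and -0.95 in these 3 contrasts, beside 0.05, -0.12 and -0.44 for all genes.

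Of 17 retinoic acid and Cdx genes, which act upstream of Hox genes in the embryo, 5 were tested. The retinoic acid receptor Rarb was at 449 ± 114 CPM in neuron-like, 250 ± 61.7 CPM in glia-like, 57.7 ± 11.2 CPM in smooth muscle-like (SD, n = 6) and 7.69 ± 11.5 CPM in epithelium-like nuclei (n = 5). It was higher in neuron-like than in glia-like nuclei (0.95 ± 0.22), where Rarg was lower (-1.15 ± 0.35) and 3 genes did not pass. Among the neuron clusters Rarb went opposite to Hoxb5, higher in cluster 11 (4.17 ± 0.40) and lower in cluster 8 (-2.92 ± 0.65). Cdx1 was at 23.7 ± 3.33 CPM in epithelium-like nuclei and at most 9.45 CPM in any neuron-like library, and it did not pass the filter. Of 19 Polycomb and Trithorax genes, which hold Hox genes silent or active, 13 were tested, and Kmt2a was higher (1.18 ± 0.19) and Ezh2, Kdm6b and Jarid2 were lower in neuron-like than in glia-like nuclei.

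Of 12 gut regional factors 3 were tested. Gata6, a factor of the endoderm, was higher in epithelium-like than in neuron-like and glia-like nuclei (5.44 ± 0.47), and Tbx3 was lower (-5.24 ± 0.44). Of 14 noncoding transcripts of the Hox loci 1 was tested, Hoxb3os, which runs antisense to Hoxb3. It was at 4.21 ± 2.68 CPM in neuron-like, 52.5 ± 11.01 CPM in glia-like and 90.1 ± 15.5 CPM in smooth muscle-like nuclei (SD, n = 6), and lower in neuron-like than in glia-like nuclei (-3.27 ± 0.34). Hoxb3 itself was not lower in this way, but without knowledge of the strand used in counting the reads of both genes cannot be told apart, and these values carry that limit. Between the groups no gene of the 5 lists passed in neuron-like or glia-like nuclei except Ezh2 and Kdm6b. These were higher in the glia-like nuclei of the Dexamethasone library (1.40 ± 0.35 and 2.99 ± 0.32). That library has no replicate and another Cell Ranger version, and the share of all genes called there is given above. Kdm6b was also higher in cluster 13, which held most of its glia-like nuclei, than in the other glia-like clusters. The part of this make-up in the difference was not tested.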

How the data were processed

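Single-nucleus RNA was measured in 6 libraries. The deposited matrices hold counts of UMIs per gene and barcode, made by the authors with Cell Ranger 4.0.0 (Control, Stress) and 5.0.1 (Dexamethasone), per the file headers. The submitters' processing notes name Cell Ranger 5 and 5.0 and the mm10 build. The other deposited files hold gene and barcode names. Intron counting and strand use are not given in the sources used here.

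Barcodes counted as nuclei when 300 or more genes were seen and mitochondrial genes gave up to 5% of the UMIs; doublets were taken out per library by scrublet (scanpy 1.11.5). Counts scaled to 10000 per nucleus gave 2000 variable genes (Hox genes left out), 30 principal components and a graph of 15 neighbours, cut by the Leiden method (resolution 1.0). Names came from 15 marker lists (mean log2 fold of at least 0.5 for neurons and glia, 1.5 for others, at least 3 markers each in 10% of nuclei). A cluster kept no name where another class's markers outnumbered its own among its 10 leading genes.

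UMIs were summed per library and class over at least 10 nuclei, filtered by filterByExpr, scaled by TMM and tested with edgeR 4.0.16 (quasi-likelihood test, R 4.3.3), with Benjamini-Hochberg adjustment over all genes and a threshold of 0.05. Stress against Control used 5 libraries and Dexamethasone against Control all 6. Class and cluster contrasts had the library as a block. The scripts were tested on simulated data. Alternatives were DESeq2 1.42.0, other scalings, filters, nuclei, clusterings, the replicate number as a block and leaving out each library. Cluster 3 against the others, single-cluster fits, and clusters joined or restricted were added after seeing the data.

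Genes were named by rule: members with at least 30 UMIs in the class or passing a comparison, up to 25 per comparison. The remaining members named, and the Hox promoters shown, were chosen after their values were seen. The members and lists were chosen with earlier results of these data known. Gene positions and overlaps came from GENCODE M21 (GRCm38), which held 39 of the 40 IDs, and promoters from RefSeq. Some members of the other gene lists are not reported here.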

Additional observations from a re-analysis of the deposited data

How the results depend on the processing

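Over all comparisons, 274 of the recomputed counts of called Hox genes stayed within 1.5 times the reported count and 22 did not; of the values of single genes and shares, 557 kept direction and side of the threshold, 22 reversed, 4 gained and 5 lost a call. The reversals, in log2, were all of differences not called with the reported settings. In Stress against Control, glia-like nuclei, Hoxb4 was 0.034 without TMM, 0.010 without the low-count filter, 0.013 with stricter nuclei (500 genes or more, mitochondrial UMIs up to 2%) and 0.079 in cluster 13 alone, and Hoxb3 -0.057 in clusters led by a marker of their own; in neuron-like nuclei Hoxb3 was 0.25 in cluster 18 alone. In Dexamethasone against Control, glia-like nuclei, Hoxb3 was -0.31 in cluster 12 alone and Hoxb4 0.033 with stricter nuclei. In neuron-like nuclei Hoxb4 was -0.996 (stricter nuclei), -0.085 (doublets kept), -0.066 (Hox genes kept for clustering), -0.021 (resolution 0.5), -0.098 (clusters 3 and 7 joined) and -0.102 (cluster 11 alone, also the only neuron-like cluster led by its own markers), Hoxb5 -0.61 (stricter nuclei) and Hoxb6 -0.20 (resolution 0.5). Leaving out 1 library, Hoxb4 ranged from -0.26 to 0.12 (Stress, glia-like), -0.39 to 0.053 (Stress, neuron-like) and -0.13 to 0.29 (Dexamethasone, neuron-like). Without the mitochondrial filter 1 Hox gene was called for Dexamethasone in glia-like (Hoxb5, 1.28; edgeR, adjusted p = 0.0470) and 1 in neuron-like nuclei (Hoxb5, 0.83; edgeR, adjusted p = 0.0354). Without the low-count filter 1 was called for Stress in neuron-like nuclei, Hoxb5, which had also been tested with the filter. In this setting 11 were called for mesenchyme-like and 15 for epithelium-like against neuron-like and glia-like nuclei. For epithelium-like against mesenchyme-like 6 were called, for cluster 8 there were 3 and for cluster 11 there were 2. More Hox genes were tested in this setting, and the part of this in the calls was not tested. With stricter nuclei, 1 was called for neuron-like against glia-like, 3 for each of mesenchyme-like and epithelium-like against neuron-like and glia-like, and 1 for epithelium-like against mesenchyme-like; other causes were not tested. With cluster 3 kept among the neuron clusters 2 were called for cluster 8. Leaving out 1 library gave 1 to 4 calls for epithelium-like against mesenchyme-like (1 without Stress 2), 4 to 6 for the other contrasts of those classes, 0 to 1 for cluster 3 (1 without Control 2), 1 to 3 for cluster 8 and 1 to 2 for cluster 11 (3 and 2 without Dexamethasone 1). In epithelium-like against mesenchyme-like nuclei Hoxb3 lost its call with stricter nuclei, without Stress 1 and without Stress 2, Hoxb4 without Stress 2, and Hoxd11 with clusters led by their own markers (1.15; edgeR, adjusted p = 0.0796). Thinned to 1000 UMIs, the shares of nuclei with a Hox UMI were 21.7% (neuron-like), 23.0% (glia-like), 30.7% (smooth muscle-like), 11.8% (fibroblast-like) and 20.4% (epithelium-like). The labels do not say whether the replicate numbers pair the libraries, and 2 pairs are too few to decide it. Same-numbered deviations correlated over genes at -0.079 in glia-like and 0.070 in neuron-like nuclei. With the replicate block 0 Hox genes were called in all 5 Stress comparisons (Hoxb5 in neuron-like nuclei 1.01, edgeR, adjusted p = 0.677). Scaling to total UMIs shifted the median of all genes by 0.11 to 0.13 (log2) in smooth muscle-like nuclei (both treatments), Dexamethasone neuron-like and Stress fibroblast-like nuclei. Dexamethasone against Control in epithelium-like nuclei was not run, with 3 nuclei. At most 6 of the 39 Hox genes passed the filter on low counts in any comparison.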
